A study of Macaca fascicularis with 6 samples.

Results

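Interferon-stimulated genes are the genes that cells switch on when type I, II or III interferon binds its receptor, and 39 of them were followed here through the lung cells of cynomolgus monkeys, chosen by name as the rows of each library whose symbol is on the list. A row with the symbol was found for 36 of the 39, among 28623 genes in all, and IFIT5, USP18 and SAMD9L had no row by that symbol and were not analysed. The monkeys were male and 3 to 5 years old. The asthma group (replicates 8, 10 and 11) had been sensitized with Ascaris suum allergen at 1 mg/mL mixed with adjuvant. It was then challenged through the nose at 10 mg/mL. The control group (replicates 1, 2 and 3, normal in the labels) had received saline instead. Lung tissue was taken at week 11, following methacholine tests of the airways. Each monkey gave 1 droplet library of 3′ tags with unique molecular identifiers (UMIs), with 40556102, 33210436 and 32240293 UMIs from the control monkeys and 41184329, 41489879 and 29014556 from the asthma monkeys, in the order of replicates kept throughout. The cells that passed quality control numbered 4339, 3200 and 3902 in the control group and 4136, 4620 and 4038 in the asthma group, and any pair of libraries shared between 1 and 11 cell barcodes.

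Type I interferons signal through the receptor subunits IFNAR1 and IFNAR2 and the kinases JAK1 and TYK2 to a complex that holds STAT2 and IRF9 and binds the promoters of these genes, while interferon gamma has a receptor of its own. The products act at many steps against viruses: IFIT proteins bind foreign RNA ends, the OAS enzymes sense double-stranded RNA and activate RNase L, MX1 and MX2 are dynamin-like GTPases that block viral particles, and ISG15 is a ubiquitin-like modifier. In the lung, the alveolar epithelium, macrophages and infiltrating leukocytes are known both to make and to answer interferon, and plasmacytoid dendritic cells keep IRF7, the factor that drives interferon genes, at a high basal level.

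Cells were clustered without these genes and named from fixed markers as classes that end in -like. A pair of clusters that no marker list named is called by leading genes, the VCAN S100A8 cells and the PLD4 CD300H cells. All levels below are UMIs of a gene per 1000000 UMIs of the class (CPM), in each library by itself. Tags were counted at the 3′ end of transcripts, so the CPM is not divided by length, and shares of UMIs held by different members are shares of counts rather than of molecules present.

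The 36 members held 412492 UMIs, and 6 of them held 62.2% of these. LY6E, a membrane protein known to act on the entry of viruses, held 20.55%, IFI6, an endoplasmic reticulum protein, 11.03%, IFI27, a mitochondrial protein, 10.49%, BST2 (tetherin), which holds budding virus at the cell surface, 9.92%, TRIM22, a ubiquitin ligase of the tripartite motif family, 5.76%, and the RNA exonuclease ISG20 4.42%. At the other end stood RSAD2 (viperin), a radical enzyme that makes a chain-terminating nucleotide, with 509 UMIs, and the E3 ligase HERC6 with 574. Each of the first 6 members had its own distribution over the lung. With the 6 libraries pooled, LY6E was highest in B-like (1169.7 CPM), MC-like (1109.5 CPM) and T and NK-like cells (951.7 CPM) and lowest in granulocyte-like cells (34.2 CPM), where MC is the study's short name for mesenchymal cells, a class led here by UPK3B, MSLN and ITLN1, which are known as genes of the mesothelium. IFI27 stood at 3129 CPM in endothelial-like cells, 461.6 CPM in MC-like cells and 275.5 CPM in macrophage-like cells, the last of which fell to 21.2 CPM without asthma replicate 10. TRIM22 was highest in granulocyte-like cells (520.0 CPM) and then in endothelial-like cells (287.3 CPM). ISG20 was highest in B-like (347.9 CPM), granulocyte-like (306.9 CPM) and T and NK-like cells (253.3 CPM), and BST2 in mast-like (488.5 CPM), dendritic-like (311.9 CPM) and T and NK-like cells (304.6 CPM). The mast-like value of BST2 rested on 302 UMIs. It ran from 193.7 CPM in asthma replicate 11 to 831.4 CPM in asthma replicate 10. IFI6 was at 479.1 CPM in plasmacytoid dendritic-like, 419.1 CPM in macrophage-like and 372.0 CPM in endothelial-like cells. The first of these fell to 280.1 CPM without control replicate 1 and the second to 197.8 CPM without asthma replicate 10, each below the endothelial level.

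When each library was given the same weight, granulocyte-like cells had the highest mean level for 15 of the 36 members and endothelial-like cells for 9, and when the libraries were pooled by UMIs the numbers were 12 and 13. The IFIT family belonged to the first of these. Mean CPM in granulocyte-like cells was 410.6 ± 479.1 for IFIT1, 260.9 ± 210.5 for IFIT2 and 572.9 ± 406.6 for IFIT3 (SD over 6 libraries), and the next class had 124.4 ± 92.8 CPM for IFIT1 and 149.5 ± 73.0 CPM for IFIT3, endothelial-like cells in both. The spread of IFIT1 and IFIT3 in granulocyte-like cells reached down to the level of the endothelial-like cells, so this order does not hold in every library. TRIM22 at 554.9 ± 123.0 CPM, the transcription factor IRF9 at 380.3 ± 143.9 CPM and SAMD9 at 193.5 ± 93.5 CPM were less spread between libraries. The OAS enzymes divided differently. OAS1 (157.4 ± 112.5 CPM), OAS2 (68.7 ± 37.5 CPM) and OAS3 (76.4 ± 25.2 CPM) were highest in endothelial-like cells, whereas OASL, the family member without enzyme activity, was highest in granulocyte-like cells (59.6 ± 56.9 CPM). OAS1 had only 6 UMIs in all granulocyte-like cells of the 6 libraries.

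IRF7 marked plasmacytoid dendritic-like cells, with 1300.3 ± 503.0 CPM over the 4 libraries that held at least 10 such cells, against 196.5 ± 126.5 CPM in granulocyte-like cells, the next class. IRF7 made up 38.1% of the members' UMIs in plasmacytoid dendritic-like cells, IFI27 45.1% of those in endothelial-like cells, and LY6E 48.9%, 44.5% and 35.6% of those in B-like, MC-like and T and NK-like cells. SIGLEC1, a sialic acid receptor of macrophages, was highest in plasmacytoid dendritic-like cells at 119.4 ± 55.3 CPM and next in macrophage-like cells at 35.1 ± 28.5 CPM. These 4 libraries held between 10 and 22 plasmacytoid dendritic-like cells each. IRF7, SIGLEC1 and DDX60 were therefore read from few cells there, and with 1 asthma library of at least 10 such cells no between-group test over all its libraries is given. Families of paralogs such as IFIT1, IFIT2 and IFIT3 or OAS1, OAS2 and OAS3 can share reads, and how such reads were counted is not given in the sources used here, so levels within a family carry that uncertainty.

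**Figure D1:**
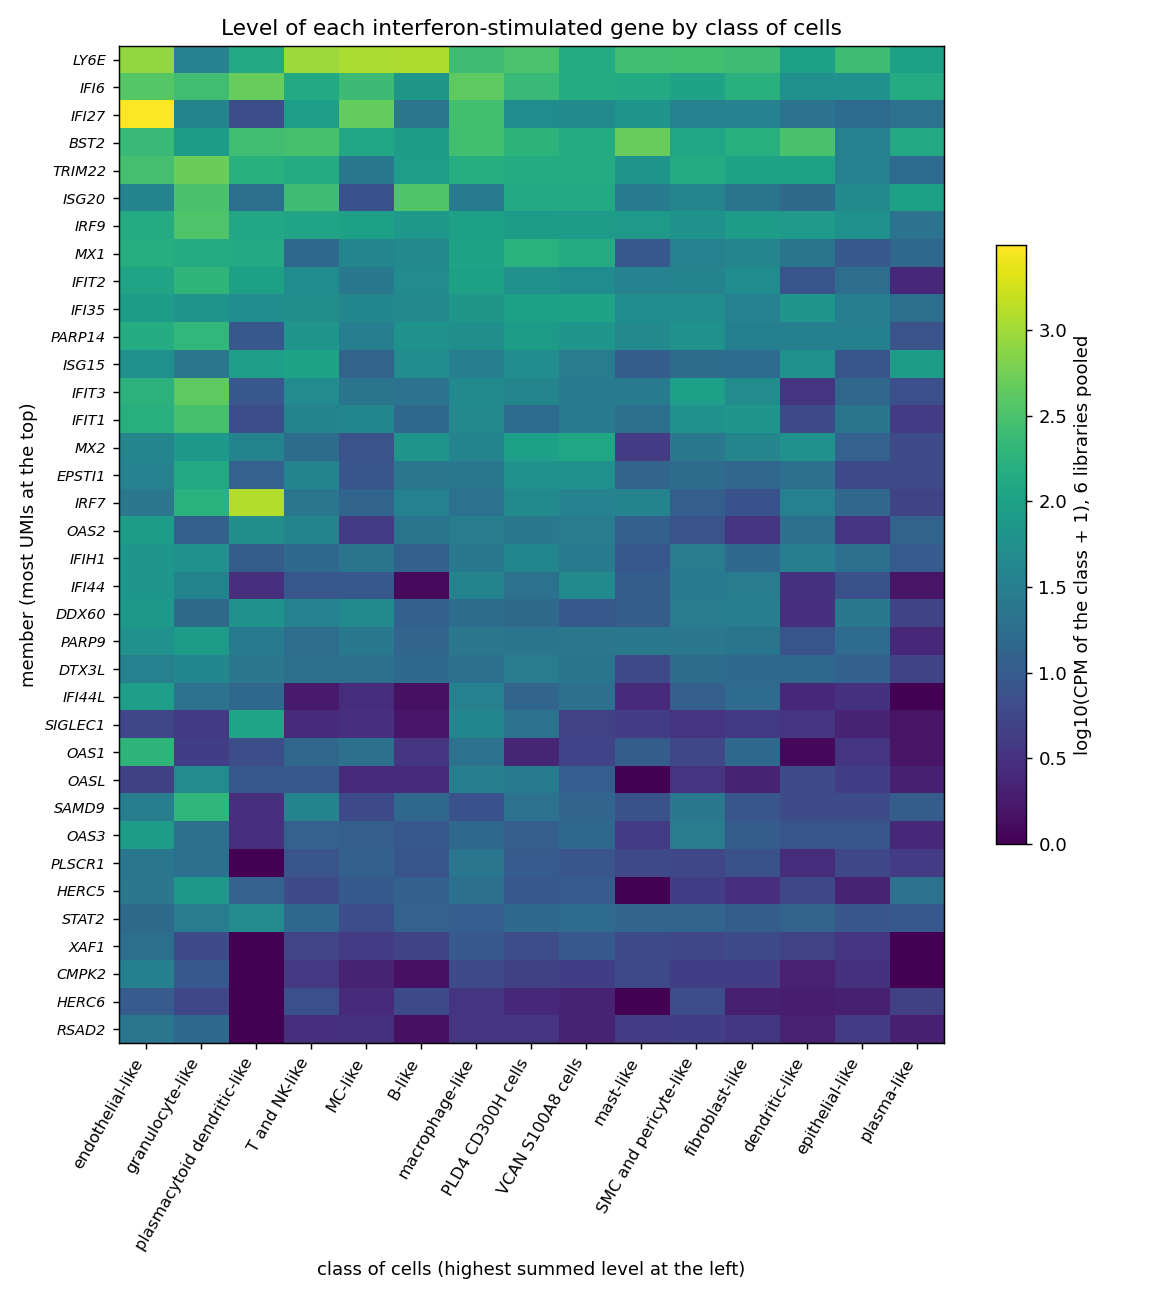
Heat map of the 36 members with a row (rows, most UMIs at the top) in 15 classes of cells (columns, highest summed level at the left), with colour for log10 of CPM + 1 over the 6 libraries pooled. The brightest cells are IFI27 in endothelial-like cells at 3129 CPM, IRF7 in plasmacytoid dendritic-like cells at 1228 CPM and LY6E in B-like, MC-like and T and NK-like cells.

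The first comparison asked whether the members stood higher or lower in the asthma group, in whole libraries and within each class. In whole libraries the summed level of the 36 members was 1509, 2061 and 2060 CPM in the control group and 2563, 3977 and 1858 CPM in the asthma group, so asthma replicate 11 lay below 2 of the 3 control libraries. A whole-library level also follows the mix of cells, and more cells of a type and more RNA per cell cannot be told apart in it. None of the 36 members was a DEG in whole libraries, where a DEG was a gene past 0.05 in the adjusted p of edgeR's quasi-likelihood test whose log2 fold change was larger than 0.25 in either direction, and 0.0839% of all 14306 genes tested were DEGs. At an unadjusted p under 0.05 there were 6 of the 36 members, near the 12.9% of all genes, and DESeq2 called MX1 and OAS1, where it called 4.81% of genes. The asthma libraries all lay above the control libraries for 9 of the 36 members, against 15.9% of all genes tested, and the median log2 fold change was 0.38 for members and -0.02 for all genes.

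IFI27 in whole libraries was at 26.8, 138.4 and 47.0 CPM in the control group and 266.9, 782.8 and 168.7 CPM in the asthma group, with a log2 fold change of 2.40 (SE 0.82, edgeR adjusted p = 0.311). Its groups did not overlap, but control replicate 2 came close to asthma replicate 11, and asthma replicate 10 was far above both. OAS1, which makes the 2-5A messenger, was at 7.7, 8.7 and 12.7 CPM against 23.1, 31.4 and 22.9 CPM, with a log2 fold change of 1.29 (SE 0.22, edgeR adjusted p = 0.122). IFI44L, of unknown biochemical activity, was at 13.9, 6.9 and 9.3 CPM against 17.0, 44.0 and 16.9 CPM (log2 fold change 1.24, SE 0.49, edgeR adjusted p = 0.361). Endothelial-like cells were the class with most OAS1 CPM, and they held 0.95%, 0.90% and 2.79% of all UMIs in the control libraries and 3.80%, 3.51% and 4.76% in the asthma libraries, a difference in composition whose part in these whole-library values was not tested.

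**Figure D2:**
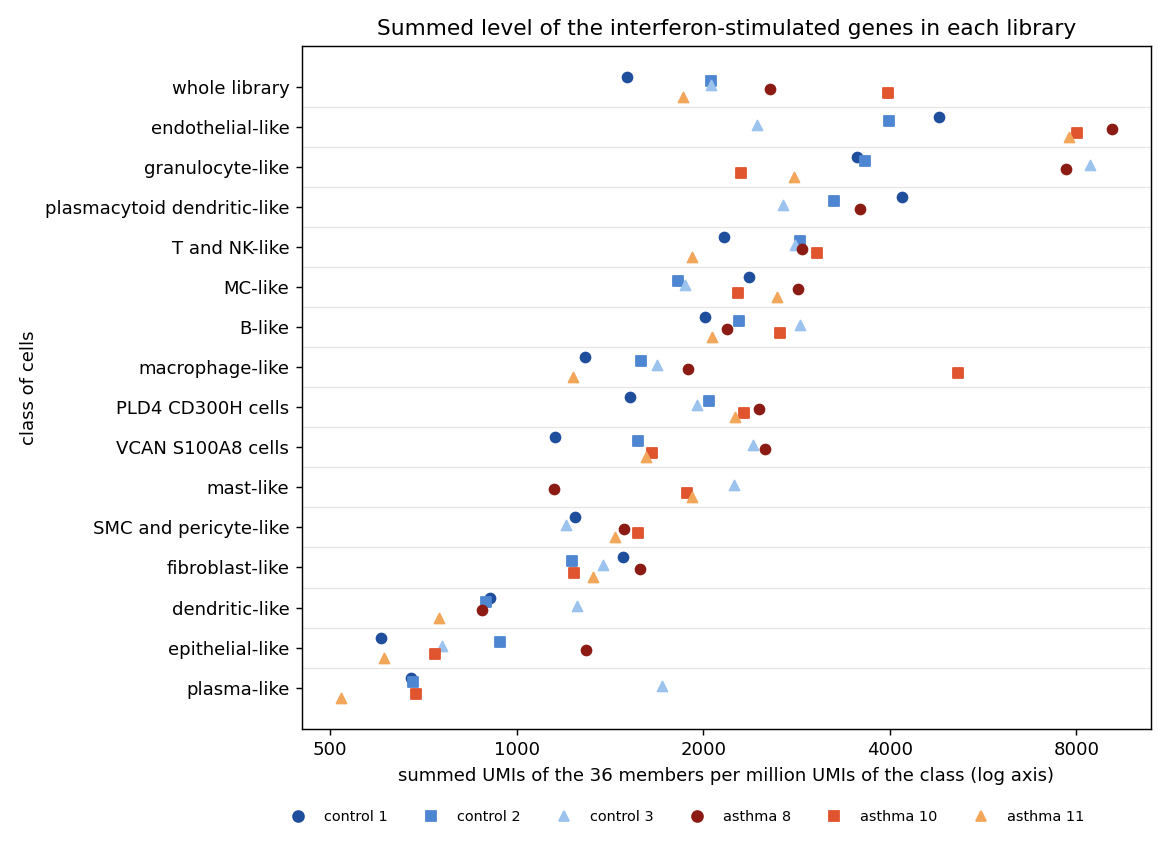
Summed CPM of the 36 members (horizontal log axis) in whole libraries and in each class of cells (vertical axis), 1 point per library with at least 10 cells, blue for the 3 control and red to orange for the 3 asthma libraries. Endothelial-like cells separate the groups (at most 4800 CPM in control and at least 7788 CPM in asthma), asthma replicate 10 stands apart in macrophage-like cells, and control replicate 3 and asthma replicate 8 stand apart in granulocyte-like cells.

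In endothelial-like cells 2 of 34 members tested were DEGs, both up-regulated in the asthma group, against a background of 3.77% of 8123 genes, so the share of members is near that of all genes. OAS2, which binds double-stranded RNA, was at 39.8, 31.6 and 34.0 CPM in the control group and 89.8, 107.5 and 109.3 CPM in the asthma group, a log2 fold change of 1.33 (SE 0.22, edgeR adjusted p = 0.0213). EPSTI1, a gene first described as induced in epithelium by stroma, was at 18.4, 13.5 and 14.4 CPM against 40.1, 39.7 and 46.4 CPM, a log2 fold change of 1.24 (SE 0.28, edgeR adjusted p = 0.0444). The control values of both genes rest on few UMIs, namely 13, 7 and 26 for OAS2 and 6, 3 and 11 for EPSTI1. The OAS2 call held without control replicate 2 and without asthma replicate 8 and was lost without any other single library, and the EPSTI1 call was lost without any single library. It was also lost with DESeq2 (adjusted p = 0.132), which called LY6E and OAS2 and 5.74% of genes, with doublets removed (edgeR adjusted p = 0.0884), where LY6E and OAS2 were called, and with a mitochondrial maximum of 10% (edgeR adjusted p = 0.154), where OAS2 was. Without adjustment, p was under 0.05 for 10 of the 34 members and 21.5% of genes.

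The other members in endothelial-like cells leaned the same way without passing the test. The log2 fold change was above 0 for 31 of 34 members, with a median of 0.61 against 0.02 for all genes, and for 16 of the 34 members the groups did not overlap, with the asthma libraries above, against 22.7% of all genes. IFI27 was at 1748, 2002 and 299.1 CPM in the control group and 4485, 4315 and 3100 CPM in the asthma group (log2 fold change 1.39, SE 0.54, edgeR adjusted p = 0.179). OAS1 was at 143.9, 67.6 and 31.3 CPM against 192.6, 156.9 and 352.0 CPM (log2 fold change 1.41, SE 0.50, edgeR adjusted p = 0.149). In both genes the lowest value was that of control replicate 3, and the asthma libraries were all above the control libraries. The summed level was 4800, 3985 and 2441 CPM in the control libraries and 9132, 8033 and 7788 CPM in the asthma libraries. By role, 8 of 10 groups of members had all asthma libraries above the control libraries, among them the 5 IFI genes, 4 membrane members and 6 OAS and RNA sensing genes. No matching share over all genes is given for such sums. A sum can also repeat a single abundant gene, since the 5 IFI genes were at 5238, 4844 and 3805 CPM in the asthma libraries and most of this was IFI27. The groups overlapped for ISG15 with its ligases HERC5 and HERC6, at 128.6, 22.5 and 66.6 CPM against 97.6, 74.0 and 106.0 CPM, and for MX1 with MX2, at 220.4, 81.1 and 112.3 CPM against 273.7, 115.5 and 229.4 CPM.

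The endothelial-like class was made of different cells in the groups. A pair of clusters with RAMP3 among their leading genes held 16, 21 and 16 of the 47, 37 and 105 endothelial-like cells of the control libraries and 200, 213 and 311 of the 273, 255 and 365 of the asthma libraries, and the remaining cells lay in a cluster led by VWF. Within the RAMP3 clusters the summed level was 7353, 4719 and 3414 CPM in the control group and 12411, 9532 and 8244 CPM in the asthma group, and within the VWF cluster it was 4070, 3416 and 2323 CPM against 4740, 2571 and 5686 CPM. The groups did not overlap within the RAMP3 clusters and overlapped within the VWF cluster, and in each library the RAMP3 level was above the VWF level. The RAMP3 clusters still held different cells in the groups. A sub-cluster led by MMRN1, NTS and CCL21, with LYVE1 and without RAMP3 among its leading genes, made up 4, 7 and 7 of their control cells and 7, 3 and 10 of their asthma cells, and its level was 3137 CPM with the libraries pooled. Without it the summed level in the RAMP3 clusters was 9227, 11181 and 5751 CPM in the control group, from 12, 14 and 9 cells, and 13083, 9747 and 8619 CPM in the asthma group, from 193, 210 and 301 cells, and the groups overlapped. OAS2 there was at 139.4, 156.6 and 142.0 CPM in the control group, from 5, 5 and 2 UMIs, and 115.1, 131.6 and 120.6 CPM in the asthma group, so every asthma library was below every control library there, against the order in the whole class. EPSTI1 was at 55.8, 31.3 and 0.0 CPM in the same control cells, from 2, 1 and 0 UMIs, against 52.6, 47.3 and 53.2 CPM, and in the VWF cluster at 7.9, 16.0 and 14.6 CPM against 24.5, 16.4 and 27.9 CPM. The groups overlapped for EPSTI1 in the first. They did not in the second, where control replicate 2 and asthma replicate 10 were nearly equal. EPSTI1 had too few UMIs for a test in the VWF cluster. Of the 19 members tested there, 0 had every asthma library above, against 8.25% of genes. In the VWF cluster, 61 of the 89 cells of control replicate 3 lay in a sub-cluster with EDN1 and F5 among its leading genes, at 2200 CPM, which held at most 12 cells of any other library. None of 31 members tested was a DEG within the RAMP3 clusters, where 5.5% of 5795 genes were, and none of 19 within the VWF cluster, where 0.0% of genes were. Without adjustment, p was under 0.05 for 11 of the 31 members and 1100 of 5795 genes (19%) in the RAMP3 clusters, and for 0 of the 19 members and 5.88% of genes in the VWF cluster. DESeq2 called 1 member in the RAMP3 clusters, LY6E, where it called 6.73% of genes, and 0 in the VWF cluster. In the RAMP3 clusters, MMRN1 cells included, the asthma libraries were all above for 11 of 31 members, against 15.1% of genes.

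LY6E in the RAMP3 clusters, MMRN1 cells included, was at 922.6, 578.3 and 651.4 CPM in the control group and 1387, 1055 and 1332 CPM in the asthma group (log2 fold change 0.78, SE 0.23, edgeR adjusted p = 0.0717), the lowest adjusted p of a member there. IFI27 in the same cells was at 3098, 2365 and 784.1 CPM against 6760, 5294 and 3268 CPM, and OAS2 was at 82.6, 51.6 and 36.2 CPM against 108.1, 128.0 and 114.9 CPM (edgeR adjusted p = 0.118 for OAS2). Without the MMRN1 sub-cluster the groups overlapped for LY6E, at 1477.4, 1346.7 and 568.0 CPM against 1433.4, 1072.6 and 1403.2 CPM, and for IFI27, at 4572, 6139 and 1988 CPM against 7241, 5432 and 3497 CPM. MX2, DTX3L and ISG20 had the largest fold changes among RAMP3-cell members without overlap, and all rest on at most 2 UMIs in any control library. In the VWF cluster IFI27 was at 1362, 1720 and 240.2 CPM against 1438, 749.3 and 2325 CPM, and OAS2 at 27.5, 16.0 and 33.7 CPM against 65.3, 32.7 and 83.7 CPM, with overlap in both. Macrophage markers summed to 88.8, 67.6 and 20.9 CPM in the endothelial-like cells of the control libraries and 92.4, 1229.6 and 230.2 CPM in those of the asthma libraries, with C1QB the most abundant and none of 10 at 0, and their part in the endothelial values was not tested.

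**Figure D3:**
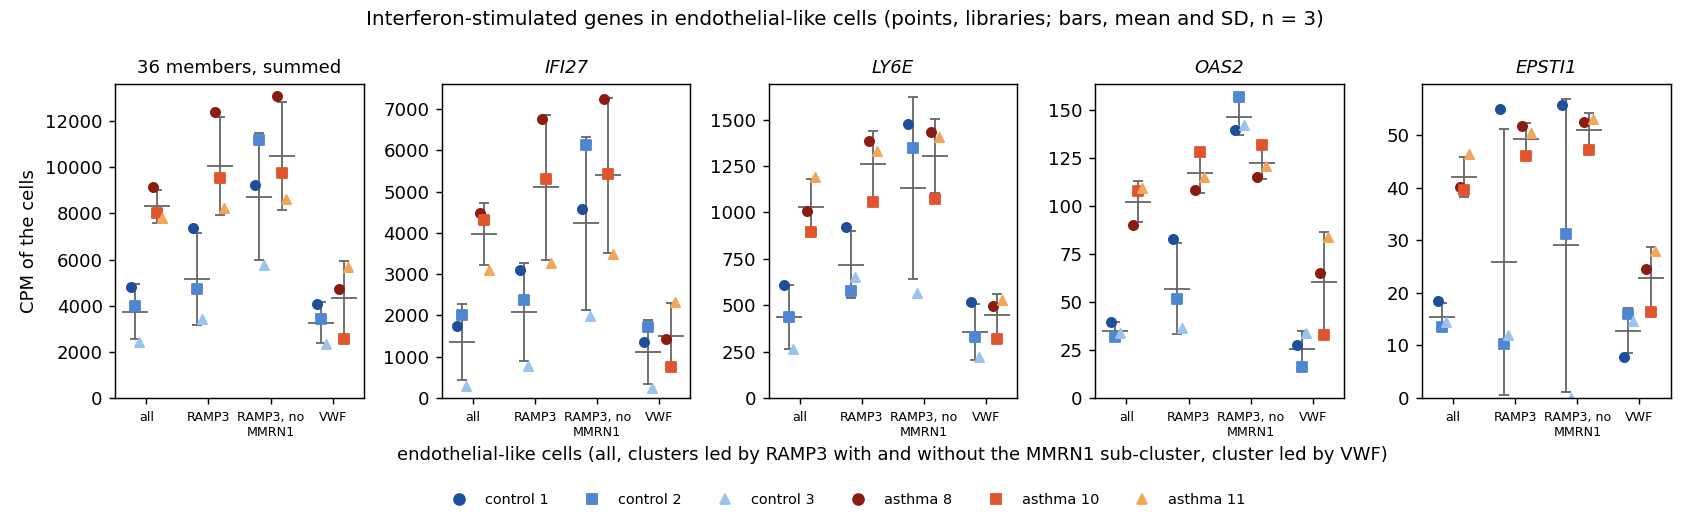
CPM (vertical axes from 0) of the summed 36 members, IFI27, LY6E, OAS2 and EPSTI1 in all endothelial-like cells, in the clusters led by RAMP3 with and without the MMRN1 sub-cluster, and in the cluster led by VWF (horizontal axis), with points for libraries and bars for the mean and SD of 3. The groups separate for all 5 quantities in all endothelial-like cells, and they overlap for the summed level, IFI27 and LY6E in the RAMP3 clusters without the MMRN1 sub-cluster and in the VWF cluster.

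Macrophage-like cells were set apart by 1 library. The summed level of the members was 1291, 1586 and 1685 CPM in the control libraries and 1890, 5163 and 1234 CPM in the asthma libraries, so asthma replicate 10 was at more than 2 times any other library, while asthma replicate 11 was the lowest of the 6. Without asthma replicate 10 the log2 ratio of the group means fell from 0.86 to 0.04. None of 36 members tested was a DEG in macrophage-like cells, nor was any of the 10770 genes (0.0%). At an unadjusted p under 0.05 there were 4 of the 36 members, beside 5.4% of genes, and DESeq2 called 0. Asthma replicate 10 had the highest level of 28 of the 36 members (77.8%) and of 18.3% of all genes tested.

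IFI27 had the widest range of any member in this class, at 4.5, 75.5 and 11.8 CPM in the control group and 20.4, 1099.7 and 10.1 CPM in the asthma group. IFI6 was at 196.0, 231.6 and 217.2 CPM against 184.6, 1136.4 and 161.2 CPM, and MX1 at 46.6, 34.3 and 98.6 CPM against 91.3, 244.8 and 59.4 CPM. ISG15 was between 12.5 and 16.2 CPM in 5 libraries and at 81.2 CPM in asthma replicate 10. Asthma replicates 8 and 11 lay within the control range for IFI27 and MX1 and below every control library for IFI6. In each of these 4 genes only asthma replicate 10 stood far above the control range. Asthma replicate 10 exceeded every other library by more than 2 times for 19 of 36 members (52.8%), for 5 of 95 further genes of the interferon pathway (5.3%) and for 95 of 10770 genes tested (0.9%), a pattern that was defined after the values were seen.

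Not every member took part. TRIM22 was between 128.9 and 163.9 CPM in the macrophage-like cells of all 6 libraries, STAT2 between 7.2 and 11.5 CPM, SAMD9 between 5.5 and 9.1 CPM, and PLSCR1, a phospholipid scramblase, between 17.3 and 28.1 CPM. STAT2 and SIGLEC1 were the members whose groups did not overlap, 2 of 36 against 11.5% of all genes with every asthma library above. SIGLEC1 was at 16.9, 20.5 and 23.1 CPM in the control group and 30.4, 92.5 and 27.4 CPM in the asthma group (log2 fold change 1.25, SE 0.49, edgeR adjusted p = 0.879). STAT2 was at 10.16, 8.73 and 7.23 CPM against 10.64, 11.02 and 11.50 CPM (log2 fold change 0.22, SE 0.19, edgeR adjusted p = 0.914).

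The high level of asthma replicate 10 was spread over its macrophage-like cells. When each cell was thinned to 2000 UMIs, the median number of member UMIs was 2, 2 and 3 in the control libraries and 3, 8 and 2 in the asthma libraries, and at least 5 were found in 10.4%, 19.9% and 23.5% of control cells and 27.7%, 73.9% and 11.9% of asthma cells. These shares come from a cut through a continuous range, and between 67 and 148 cells of a library had 4 or 5. IFI27 was found in 0.87%, 12.28% and 2.75% of thinned control cells and in 2.32%, 50.54% and 2.84% of thinned asthma cells, and before thinning in 4.23%, 35.96% and 5.71% and in 12.73%, 65.74% and 8.47%. In B-like cells, thinned to the same number, IFI27 was found in between 1.43% and 5.98% of cells. The median depth was 14037 to 25485 UMIs in macrophage-like cells and 4036.5 to 5129.5 UMIs in B-like cells.

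A pair of clusters made up the class, and both showed the same library. In the cluster led by FABP4, a lipid-binding protein of alveolar macrophages, the summed level was 1313, 1608 and 1667 CPM in the control group and 2012, 7013 and 1314 CPM in the asthma group, and IFI27 ranged from 1.1 CPM in control replicate 3 to 1610 CPM in asthma replicate 10. In the cluster led by the folate receptor FOLR2 it was 1210, 1536 and 1736 CPM against 1394, 4282 and 1118 CPM. The FOLR2 cluster was mixed as well, since sub-clusters with CXCL3 or CCL17 and without FOLR2 among their leading genes held 175 of its 383 cells in control replicate 1, and one led by PLA2G2D and ADAMDEC1 held 230 of its 727 cells in asthma replicate 10 and 23 of those in control replicate 1. Asthma replicate 10 was the highest library within 5 of the 6 sub-clusters, at 3605 to 4634 CPM against at most 1908 CPM, and not within the one led by STAB1 (2284 CPM against 1701 to 2852 CPM, with control replicate 2 left out at 2 cells). Neither cluster held a DEG among the 33 members tested in each, with 0.0% of genes called in both. Without adjustment, p was under 0.05 for 9 of the 33 members and 4.97% of genes in FABP4 cells, and for 0 of the 33 members and 4.82% of genes in FOLR2 cells, and DESeq2 called 0 members in both. In FABP4 cells 3 members, ISG15, PARP9 and DTX3L, had every asthma library above, against 8.59% of genes. ISG15 there was at 10.2, 10.0 and 10.6 CPM against 16.9, 122.9 and 20.3 CPM. The share of thinned cells with at least 5 member UMIs in asthma replicate 10 was 91.1% in FABP4 cells and 69.0% in FOLR2 cells, and in the other libraries between 10.3% and 32.2% and between 9.2% and 20.3%. The mix of macrophages also differed, since FOLR2 cells numbered 727 and FABP4 cells 204 in asthma replicate 10, against 169 and 436 in asthma replicate 8. The FABP4 cluster also held different cells, since 178 of its 204 cells in asthma replicate 10, but 29 of 657, 19 of 201 and 6 of 228 in the control libraries, lay in a sub-cluster led by ADAMDEC1 and TIMD4 that had IFI6 and IFI27, but not FABP4, among its leading genes. Within that sub-cluster the summed level was 7071 CPM in asthma replicate 10 and 1211 to 1771 CPM in the other libraries, and in the FABP4 cluster without it 6563 CPM, from 26 cells, and 1308 to 2055 CPM, so asthma replicate 10 was as high within both.

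**Figure D4:**
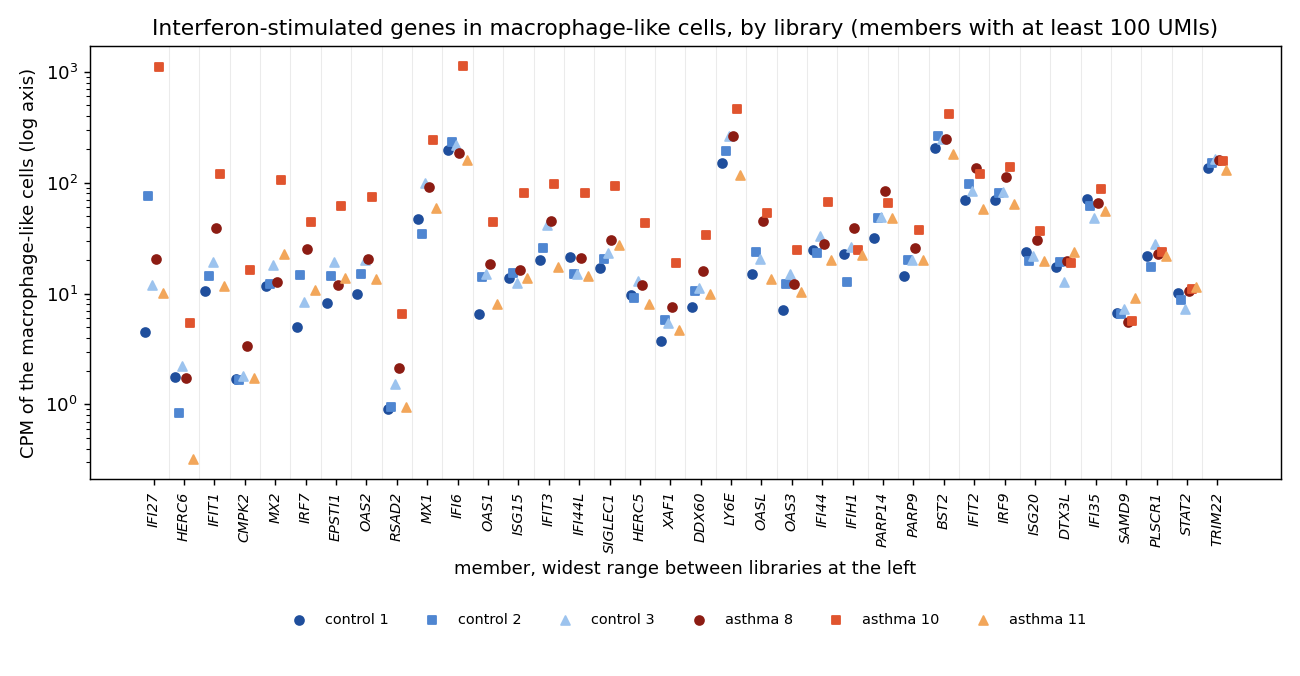
CPM in macrophage-like cells (vertical log axis) of the members with at least 100 UMIs (horizontal axis, widest range at the left), 1 point per library in the colours of the plot of summed levels. Asthma replicate 10 (orange squares) is the highest point for 28 of the 36 members, furthest for IFI27 at 1099.7 CPM, and TRIM22 lies between 128.9 and 163.9 CPM in all 6 libraries.

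Granulocyte-like cells varied as much, but not by group. The summed level was 3538, 3644 and 8428 CPM in the control group and 7706, 2298 and 2801 CPM in the asthma group, so 1 library of each group was at more than 2 times the rest. None of 18 members tested was a DEG, nor was any of 3072 genes (0.0%). Without adjustment, BST2 was the 1 member of 18 with p under 0.05, beside 3.84% of genes, and DESeq2 called 0. The SD of log2 CPM within the groups had a median of 0.99 over the members tested and 0.38 over all genes, and 17 of the 18 members were above the median gene.

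IFIT1 was at 174.8, 129.4 and 912.2 CPM in the control group and 1128.2, 61.0 and 57.8 CPM in the asthma group. MX1 was at 180.8, 29.3 and 342.1 CPM against 510.8, 22.2 and 74.4 CPM, a 23.0-fold range that was the widest of a granulocyte-like member with at least 100 UMIs. IFIT3 was at 560.6, 246.7 and 1109.2 CPM against 1021.6, 144.2 and 355.3 CPM. In all 3 genes control replicate 3 and asthma replicate 8 were the highest libraries, and the means of the groups were near each other, at 405.5 ± 439.4 and 415.7 ± 617.1 CPM for IFIT1. The values rest on few UMIs, 88 of IFIT1 in control replicate 3 and 307 in asthma replicate 8. Control replicate 3 and asthma replicate 8 were the 2 highest libraries for 12 of 18 members (66.7%), for 12 of 51 further pathway genes (23.5%) and for 288 of 3072 genes tested (9.4%), and this pattern too was defined after the values were seen.

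The members that kept apart from it were of several roles. TRIM22 was at 566.6, 627.6 and 704.9 CPM against 613.7, 382.7 and 433.8 CPM, a 1.84-fold range. ISG20 was highest in control replicate 2 (486.0 CPM) and asthma replicate 10 (366.1 CPM). BST2 was high in control replicate 3 (311.0 CPM) and at 47.8 CPM in asthma replicate 8. EPSTI1, by contrast, had the same pair of libraries on top, at 539.0 CPM in control replicate 3 and 235.2 CPM in asthma replicate 8. ISG15 had 40 UMIs over the 6 libraries.

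After thinning, control replicate 3 and asthma replicate 8 were again the 2 highest libraries per cell. The order within this pair and among the other libraries differed in part from that of the CPM. With each granulocyte-like cell at 500 UMIs, at least 5 member UMIs were found in 9.0%, 7.5% and 35.7% of control cells and 29.6%, 1.9% and 4.4% of asthma cells, with between 6 and 35 cells of a library at 4 or 5 UMIs. IFIT1 was found in 4.22%, 4.57% and 26.53% of thinned control cells and 26.30%, 1.73% and 3.11% of thinned asthma cells, and before thinning in 7.83%, 7.26% and 37.76% and in 38.15%, 3.07% and 4.0%. Thinned T and NK-like cells had it in between 1.02% and 2.26% of cells and B-like cells in between 0.0% and 1.32%. In asthma replicate 10 the granulocyte-like share (1.73%) was below that of its T and NK-like cells (2.11%), and in asthma replicate 11 it was 3.11% (7 cells) against 1.02%. The median depth of granulocyte-like cells was 945.5 to 1071.5 UMIs and that of T and NK-like cells 3247 to 4476 UMIs. Sub-clusters of the class followed the libraries, with 209 of 267 cells of 1 sub-cluster from asthma replicate 8, 325 of 346 of another from control replicate 2 and 388 of 517 of one more from asthma replicate 10, and since the members had no part in the clustering this separation rests on other genes. Granulocyte markers summed to 17173, 40352 and 37878 CPM in the control libraries and 33886, 26707 and 27331 CPM in the asthma libraries, with S100A9 the most abundant and none of 9 at 0, and plasma cell markers, mostly IGKC, were at 1407 CPM in asthma replicate 10 and at most 86.8 CPM in the others. The part of these in the members' levels was not tested.

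**Figure D5:**
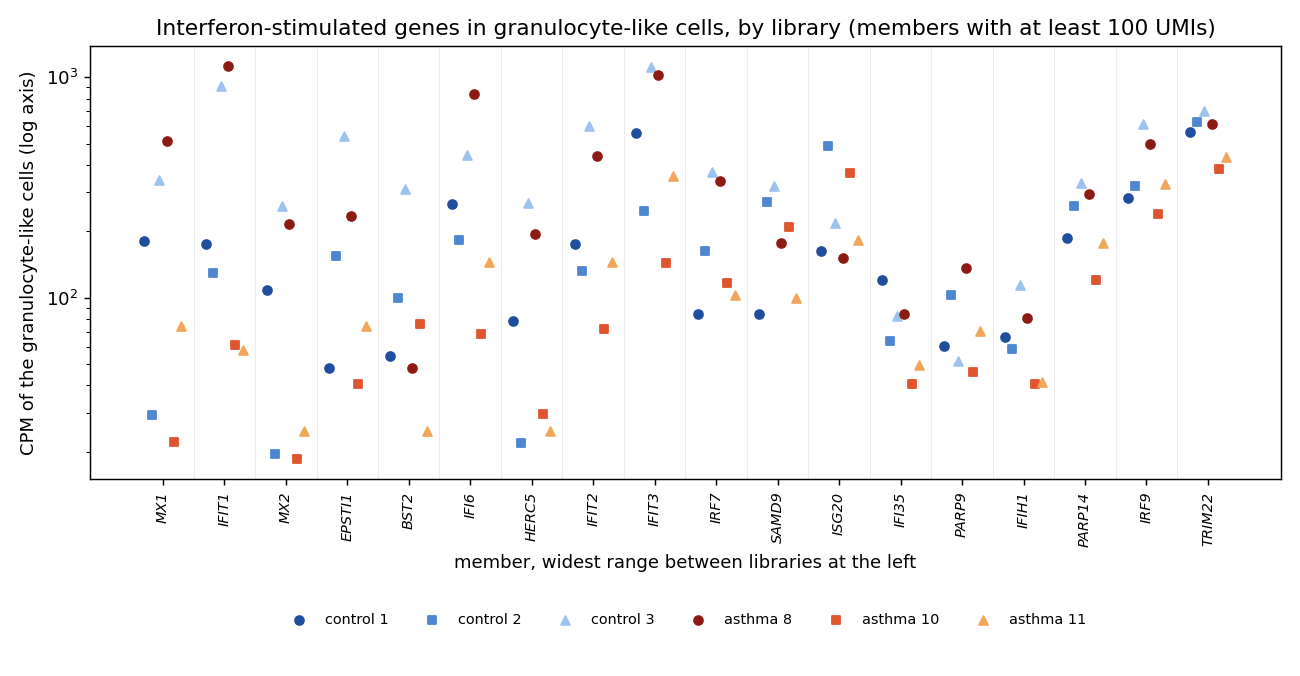
CPM in granulocyte-like cells (vertical log axis) of the members with at least 100 UMIs (horizontal axis, widest range at the left), 1 point per library in the colours of the plot of summed levels. Control replicate 3 (light blue triangles) and asthma replicate 8 (dark red circles) lie on top for IFIT1, IFIT3, MX1 and most others, and TRIM22 lies within a 1.84-fold range.

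In the PLD4 CD300H cells, which no marker list named, the summed level was 1525, 2041 and 1956 CPM in the control group. It was 2461, 2327 and 2251 CPM in the asthma group, and the groups did not overlap. The class held different cells in the groups. Sub-clusters with PLD4 or CD300H among their leading genes made up 99, 161 and 58 of its 180, 192 and 146 control cells and 82, 57 and 445 of its 120, 89 and 489 asthma cells, and the rest included a sub-cluster led by FCER1A, NGFR and FLT3, known from dendritic cells, at 1233 CPM with 126 control and 30 asthma cells. Within the PLD4 or CD300H sub-clusters the summed level was 1998, 2330 and 3204 CPM against 3205, 2235 and 2422 CPM, and the groups overlapped. In the remaining sub-clusters it was 1112, 1122 and 1395 CPM against 1279, 2422 and 1101 CPM, also with overlap (log2 ratio of the means 0.40). Without the NGFR FLT3 sub-cluster alone it was 1799, 2113 and 2451 CPM against 2647, 2395 and 2301 CPM, again with overlap (log2 ratio of the means 0.21). Within the PLD4 or CD300H sub-clusters DDX60 was at 10.9, 10.6 and 22.4 CPM against 34.6, 20.8 and 17.4 CPM, with overlap, and MX2 at 41.0, 58.4 and 99.7 CPM against 144.6, 108.9 and 135.1 CPM, without. None of 31 members was a DEG in the whole class, nor was any of 7733 genes (0.0%). At an unadjusted p under 0.05 there were 8 of the 31 members, beside 5.39% of genes, and DESeq2 called 0. Every asthma library was above for 7 of 31 members, against 7.4% of all genes, and the median log2 fold change was 0.37 for members and 0.00 for all genes. In the whole class the RNA helicase DDX60 was at 7.7, 8.0 and 11.3 CPM in the control group and 28.1, 33.2 and 15.7 CPM in the asthma group (log2 fold change 1.38, SE 0.37, edgeR adjusted p = 0.904). IFI44L was at 7.0, 4.3 and 10.1 CPM against 15.9, 16.6 and 17.7 CPM, and IFI44 at 6.4, 8.0 and 17.6 CPM against 24.3, 21.3 and 26.4 CPM, with edgeR adjusted p = 0.904 for each. MX2 was at 50.4, 53.0 and 78.2 CPM against 106.9, 113.8 and 126.2 CPM. Control replicate 1 was the lowest library for 19 of the 31 members (61.3%) and 20.1% of all genes tested. Macrophage markers in these cells summed to 792.7, 413.3 and 395.8 CPM in the control group and 686.4, 1501.3 and 962.0 CPM in the asthma group, and their part in the difference was not tested.

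T and NK-like cells, the class with most cells, showed no rise of the members in the asthma group. The summed level was 2162, 2870 and 2808 CPM in the control libraries and 2888, 3051 and 1916 CPM in the asthma libraries, and the median log2 fold change was -0.15 over 34 members and 0.00 over all 10448 genes. None of the 34 members was a DEG and 0.0% of genes were. Without adjustment, p was under 0.05 for 4 of the 34 members and 6.78% of genes, and DESeq2 called 0. IFIT3 and ISG15 were the 2 members with every asthma library below, against 4.53% of genes. IFIT3 was at 47.8, 54.1 and 63.3 CPM in the control group and 47.0, 37.7 and 26.1 CPM in the asthma group (log2 fold change -0.59, SE 0.19, edgeR adjusted p = 0.511). ISG15 was at 131.3, 113.3 and 114.3 CPM against 102.8, 97.3 and 52.1 CPM (log2 fold change -0.54, SE 0.23, edgeR adjusted p = 0.722). For both genes asthma replicate 11 was lowest, as it was for 14 of the 34 members (41.2%) and 22.1% of all genes tested. The make-up of the class differed between libraries, and the cluster led by LTB and CD40LG held 635 of the T and NK-like cells of asthma replicate 11 and between 351 and 521 in the others. Within the cluster led by GNLY and GZMA the groups stayed apart for IFIT3 (63.4, 69.1 and 78.8 CPM against 49.8, 46.3 and 36.9 CPM) and overlapped for ISG15 (130.8, 108.5 and 104.1 CPM against 111.8, 92.5 and 56.1 CPM), and within the clusters led by CD3D and by LTB they overlapped for both.

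IFI27 had the widest range of a member with at least 100 UMIs in T and NK-like cells. It was at 7.6, 242.6 and 59.7 CPM in the control group and 18.5, 159.5 and 16.0 CPM in the asthma group, a 31.8-fold range, while MX1 was at 23.0, 5.7 and 12.3 CPM against 18.8, 8.2 and 15.2 CPM. The libraries with most IFI27, control replicate 2 and asthma replicate 10, were the lowest and second lowest for MX1, and they were the highest for IFI6 within a narrow range of 102.0 to 146.5 CPM. IFI27 was found in 31.15% of the T and NK-like cells of control replicate 2 and 23.08% of those of asthma replicate 10 after thinning to 2000 UMIs, and in 47.77% and 30.69% before it. In the B-like cells of the same 2 libraries the thinned shares were 5.98% and 5.22%. Erythroid markers, nearly all HBB, summed to 708.4 CPM in the T and NK-like cells of control replicate 2 and to between 1.0 and 7.5 CPM in the other libraries, asthma replicate 10 included, and their part in the IFI27 level was not tested.

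B-like cells had summed levels of 2017, 2286 and 2870 CPM in the control group and 2188, 2664 and 2064 CPM in the asthma group. None of 24 members was a DEG, against 0.0149% of 6728 genes. There were 3 of the 24 members with an unadjusted p under 0.05, beside 6.08% of genes, and DESeq2 called 0. ISG20, IFI35 and ISG15 had every asthma library below, against 5.19% of genes. ISG20 was at 349.8, 375.6 and 426.5 CPM against 257.9, 310.9 and 265.8 CPM (log2 fold change -0.48, SE 0.16, edgeR adjusted p = 0.736). In plasma-like cells ISG15 was at 103.5, 106.4 and 224.8 CPM in the control libraries and 40.4 and 41.7 CPM in asthma replicates 10 and 11 (log2 fold change -1.39, SE 0.36, edgeR adjusted p = 0.976), the single member of 5 tested with every asthma library below, against 266 of 2214 genes (12%). Asthma replicate 8 held 9 plasma-like cells and was left out of that test. None of the 5 was a DEG (0.0% of genes). With an unadjusted p under 0.05 there was 1 of the 5, beside 3.48% of genes, and DESeq2 called 0. ISG15 was thus below the control range in the asthma libraries of T and NK-like, B-like and plasma-like cells, 3 classes whose cells come from the same monkeys, and the test was not passed in any.

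In epithelial-like cells the summed level was low, from 604.6 to 1295.4 CPM over the 6 libraries. None of 24 members was a DEG (0.0% of 9453 genes). Without adjustment, p was under 0.05 for 2 of the 24, near the 7.94% of genes, and DESeq2 called 0. MX1 and IFIT1 had every asthma library above, against 9.81% of genes, and IFI35 had every asthma library below, against 4.16%. MX1 was at 5.4, 2.2 and 7.0 CPM in the control group and 9.6, 8.1 and 13.4 CPM in the asthma group (log2 fold change 0.85, SE 0.42, edgeR adjusted p = 0.617). IFIT1 was at 16.7, 15.5 and 20.3 CPM against 25.3, 28.0 and 22.5 CPM, and IFI35, a leucine zipper protein, at 35.3, 35.4 and 41.2 CPM against 30.1, 25.9 and 21.0 CPM. Here too the class held different cells, since sub-clusters led by AGER, known from alveolar type 1 cells and at 1621 CPM of summed members, made up 18, 9 and 6 control cells and 118, 39 and 110 asthma cells. Without them the groups overlapped for MX1 (5.7, 0.0 and 7.1 CPM against 6.2, 8.4 and 4.8 CPM) and IFIT1 (13.9, 10.7 and 19.9 CPM against 12.4, 20.1 and 19.1 CPM) and stayed apart for IFI35 (37.2, 32.2 and 40.4 CPM against 23.6, 25.1 and 18.5 CPM).

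The remaining classes gave little. In SMC and pericyte-like cells, where control replicate 2 had 6 cells and was left out, the summed level was 1244 and 1199 CPM in control replicates 1 and 3 and 1488, 1568 and 1440 CPM in the asthma libraries. Sub-clusters with COX4I2, known from pericytes, among their leading genes made up 1 of 12 and 3 of 53 of these control cells and 8 of 20, 31 of 35 and 129 of 164 of the asthma cells. Without them the summed level was 1286 and 1207 CPM in control replicates 1 and 3 and 1174, 1623 and 1288 CPM in the asthma libraries (4 cells in asthma replicate 10), and the groups overlapped. TRIM22 was the 1 member of 3 tested with every asthma library above, against 16.6% of genes, and none of the 3 was a DEG, against 4.66% of genes. In dendritic-like cells, where asthma replicate 10 had 9 cells and was left out, IFI6 was at 81.7, 29.1 and 61.4 CPM in the control libraries and 19.1 and 22.9 CPM in asthma replicates 8 and 11 (log2 fold change -1.53, SE 0.48, edgeR adjusted p = 0.835). IFI6 and IFI35 were the 2 of 17 members with every asthma library below, against 9.6% of genes, and none was a DEG, against 0.0177% of genes. No member was a DEG among 14 tested in MC-like cells (0.0% of genes), 28 in VCAN S100A8 cells (0.0%) and 21 in fibroblast-like cells (0.203%). An unadjusted p under 0.05 was found for 0 of 3 members in SMC and pericyte-like cells, beside 17.4% of genes, 0 of 14 in MC-like cells, beside 4.04%, and 0 of 28 in VCAN S100A8 cells, beside 4.51%. It was found for 1 of 17 members in dendritic-like cells, near the 5.22% of genes, and 1 of 21 in fibroblast-like cells, beside 10.4%. DESeq2 called 0 members in each of these 5 classes.

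The wider interferon pathway was read from a list of 136 genes by role, of which 106 had a row by symbol. Of the ligands, interferon gamma (IFNG) was the only one measured in quantity, with 25095 UMIs, 22516 of them in T and NK-like cells. It was at 579.4, 617.0 and 526.5 CPM in the T and NK-like cells of the control group and 616.9, 670.8 and 291.7 CPM in those of the asthma group (log2 fold change -0.16, SE 0.28, edgeR adjusted p = 0.947), lowest in asthma replicate 11. The type I ligand IFNB1 had 6 UMIs, 1 in control replicate 1 and 5 in asthma replicate 10, all in macrophage-like cells, and IFNL1 had 214 UMIs, 191 of them in T and NK-like cells. IFNA6, IFNE and IFNL4 had 0 UMIs. Interferon genes without a row by symbol were not analysed.

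Receptor and signalling genes were read in the same libraries. IFNAR1 in whole libraries was at 62.9, 62.8 and 63.1 CPM in the control group and 97.3, 75.2 and 105.1 CPM in the asthma group (log2 fold change 0.40, SE 0.13, edgeR adjusted p = 0.303), and IFNAR2 had no row by symbol. IRF1, a transcription factor of the interferon response, was at 173.7, 244.5 and 240.7 CPM against 206.5, 216.1 and 151.8 CPM in whole libraries, and the groups overlapped. CXCL10, the chemokine induced by interferon gamma, was at 33.4, 40.7 and 19.5 CPM in the macrophage-like cells of the control group and 58.3, 153.9 and 99.6 CPM in those of the asthma group (log2 fold change 1.63, SE 0.42, edgeR adjusted p = 0.788). GBP1, an interferon gamma-induced GTPase, was at 191.7, 184.0 and 187.8 CPM against 269.0, 314.4 and 71.4 CPM there. The feedback inhibitors SOCS1 and SOCS3 were low, SOCS1 at 0.8 to 2.0 CPM and SOCS3 at 2.6 to 4.3 CPM in whole libraries.

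Of the pathway genes tested, none was a DEG in whole libraries (98 tested) or in any class other than endothelial-like cells. There, 4 of 75 were up-regulated in the asthma group and 0 downregulated, beside the 3.77% of all genes, and all 4 calls were lost when control replicate 1, control replicate 3 or asthma replicate 10 was taken out of the fit. SLFN5, a Schlafen family gene, was at 30.6, 49.6 and 34.0 CPM in the control group and 137.7, 110.2 and 128.4 CPM in the asthma group (log2 fold change 1.57, SE 0.23, edgeR adjusted p = 0.0185). The kinase JAK1 was at 140.8, 166.8 and 131.9 CPM against 289.4, 312.9 and 347.8 CPM (log2 fold change 0.93, SE 0.18, edgeR adjusted p = 0.0314). TNFSF10 (TRAIL), a death ligand, was at 1442, 1605 and 1097 CPM against 3035, 2763 and 3214 CPM (log2 fold change 0.93, SE 0.19, edgeR adjusted p = 0.036), and APOL2, an apolipoprotein L, at 85.7, 126.2 and 84.9 CPM against 237.1, 206.3 and 208.7 CPM (log2 fold change 0.97, SE 0.20, edgeR adjusted p = 0.0367). TNFSF10 was also among the leading genes of sub-clusters of the RAMP3 clusters, which were few in the control libraries. Within the RAMP3 clusters, MMRN1 cells included, TNFSF10 and APOL2 were up-regulated and SERPING1, the C1 inhibitor, was downregulated, with log2 fold changes of 1.47, 1.17 and -1.37. Of 62 pathway genes tested there, 2 were thus called higher and 1 lower. Of all 5795 genes 5.5% were called, so the share of pathway genes is near that of all genes. Neither JAK1 nor SLFN5 was a DEG there (log2 fold change 0.55, SE 0.24, edgeR adjusted p = 0.246, and 1.18, SE 0.34, edgeR adjusted p = 0.0717). JAK1 had every asthma library above within the VWF cluster, at 98.4, 104.0 and 124.5 CPM against 210.1, 151.5 and 176.7 CPM (edgeR adjusted p = 0.809), as had 8.25% of the genes tested there. JAK1 was also above in the RAMP3 clusters without the MMRN1 sub-cluster, at 306.6, 250.6 and 355.0 CPM against 363.3, 360.2 and 395.3 CPM. That part was chosen after the values were seen, holds few control cells and has no share of all genes to be read against. Without the MMRN1 sub-cluster the groups overlapped for TNFSF10, at 2871, 3602 and 3053 CPM against 4046, 3219 and 3659 CPM, for APOL2, at 83.6, 375.8 and 355.0 CPM against 337.0, 248.2 and 222.6 CPM, for SLFN5 and for SERPING1, and all rest on few control cells.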

How the data were processed

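Lung cells of 6 monkeys were measured, 3 per group with 1 library each. Cell Ranger, in a version on which the sources differ, was run by the authors against macFas6, and they deposited UMI counts per gene and called barcode, whole numbers that were not normalized. Totals per library run from 29014556 to 41489879 UMIs, and precision follows from the UMIs of each class. A barcode was kept as a cell if its genes numbered above 500 and below 5000, its UMIs reached 500 and mitochondrial genes took no more than 25% of them, and doublets stayed in. Cells were clustered with scanpy 1.11.5 (2000 variable genes without the members and pathway genes, 10 principal components, 20 neighbours, Leiden resolution 0.8, sub-clusters at 0.4) and named from at least 3 markers with a log2 fold of at least 1 in at least 10% of cells. Sub-clusters with at least 4 markers of a further class were left out. The authors' cell annotation was not used here.

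Counts were summed per library and class (at least 10 cells per library, at least 2 libraries per group, or 1 where a library was left out) and tested with edgeR 4.0.16 (quasi-likelihood, TMM, filterByExpr, Benjamini-Hochberg over all genes of a class) in R 4.3.3, the code being tested on simulated data. The study tested cells, which are not replicates. Exact permutation of 3 against 3 libraries cannot go below p = 0.1, so single levels were described without a test. CPM are UMIs of a gene per 1000000 UMIs of the class. The members, the lists and the named genes were chosen with earlier results of these data known. In full are given the 6 members with most UMIs, members called, up to 3 members in each direction whose groups did not overlap, pathway genes called with 10 fixed examples (1 of which is not reported here), and the widest member of a class with at least 100 UMIs. Other settings were a 10% mitochondrial maximum, at least 200 genes with no maximum, doublets removed, the members allowed in clustering, resolution 1.6, mixed sub-clusters kept, DESeq2 1.42.0, no count filter and each library left out. The splits by FABP4, FOLR2, RAMP3 and VWF, thinning to 500 UMIs, levels within or without single sub-clusters and levels without each library were added after seeing the data. No sequences were printed, as no table of them was used here.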

Additional observations from a re-analysis of the deposited data

Results flagged for a closer look

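The direction of the members' summed level differed between classes of cells. The log2 ratio of the group means was 1.15 in endothelial-like cells, 0.35 in PLD4 CD300H cells and 0.29 in SMC and pericyte-like cells, with no overlap of the groups, and -0.32 in dendritic-like cells, with asthma replicates 8 and 11 below every control library. These differences between classes were not tested, and the dendritic-like value of each of these asthma libraries rests on 25 cells. The 3 classes with every asthma library above held different sub-clusters in the groups. The groups overlapped within the RAMP3 clusters without the MMRN1 sub-cluster, within the PLD4 or CD300H sub-clusters, and in SMC and pericyte-like cells without the COX4I2 sub-clusters, with log2 ratios of 0.27, 0.06 and 0.13 over the libraries of the class. In PLD4 CD300H cells the ratio was 0.40 in the remaining sub-clusters and 0.21 without the NGFR FLT3 sub-cluster alone, both with overlap. Over libraries with at least 10 of these cells, which leaves out control replicate 3 from the first and asthma replicate 10 from the third, they were 0.039, 0.062 and -0.018. The value of SMC and pericyte-like cells was 1.16 to 1.27 under 4 other settings of the cell filter or clustering. The dendritic-like value turned positive under 3 other settings of the cell filter or clustering. With 3 libraries per group, outlying libraries were not tested, and the levels of single libraries in macrophage-like and granulocyte-like cells are given above as values.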

How the results depend on the processing

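No called result changed direction under the other settings, while the summed level of dendritic-like cells, which was not called, turned positive under 3 settings. Within sub-clusters, however, OAS2 had every asthma library below every control library in the RAMP3 clusters without the MMRN1 sub-cluster, from few control UMIs. With 1 library left out, the sign of the log2 ratio of summed levels also changed in granulocyte-like (-1.03 to 0.25), epithelial-like (-0.19 to 0.41), VCAN S100A8 (-0.06 to 0.50), T and NK-like (-0.12 to 0.18), B-like (-0.17 to 0.10) and fibroblast-like cells (-0.09 to 0.09). Of 188 counts of members under other settings 13 moved by over 1.5 times, as did 19 of 109 counts of pathway genes, and 16 of 168 summed levels moved by more than the spread between libraries. Of 94 single-gene values 40 lost their call and 54 kept their side of the threshold, all with the same direction. The causes were not tested.

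Members called numbered 2 in whole libraries with DESeq2, which called 4.81% of all genes there. Without a filter on low counts there were 5 in endothelial-like and 1 in dendritic-like cells, with a 10% mitochondrial maximum 1 in endothelial-like cells, with doublets removed 1 in fibroblast-like cells, and in the RAMP3 or the VWF cells alone 0 (without the filter 7 and 1, and 1 in RAMP3 cells without asthma replicate 8). Leaving out 1 library gave 0 to 1 members in endothelial-like cells. The share of all genes called is not given here for these settings other than DESeq2, so their counts of members have no background to be read against. With DESeq2, pathway genes called numbered 6 in whole libraries, beside 4.81% of all genes, 2 in T and NK-like and 2 in macrophage-like cells. Without the filter the pathway genes called numbered 1 in whole libraries, 2 in B-like, 4 in MC-like, 1 in PLD4 CD300H, 2 in T and NK-like, 5 in VCAN S100A8, 4 in dendritic-like, 8 in endothelial-like, 3 in fibroblast-like, 1 in granulocyte-like and 1 in plasma-like cells. The shares of all genes called without the filter, and by DESeq2 in T and NK-like and macrophage-like cells, are not given here. These counts of pathway genes therefore also lack a background. Leaving out 1 library gave 0 to 6 in endothelial-like cells (0 without control replicate 1, control replicate 3 or asthma replicate 10) and 0 to 1 in SMC and pericyte-like cells.

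The log2 ratio of summed levels in SMC and pericyte-like cells, 0.29 as reported, was 1.16 with the 10% mitochondrial maximum, 1.22 with at least 200 genes, 1.18 with doublets removed and 1.27 at resolution 1.6, and without the COX4I2 sub-clusters 0.13, or -0.018 with asthma replicate 10 (4 such cells) left out too. It was 0.062 within the PLD4 or CD300H sub-clusters (0.35 for that whole class) and in the RAMP3 clusters without the MMRN1 sub-cluster 0.27, or 0.039 with control replicate 3 (9 such cells) left out too. In dendritic-like cells it was 0.12 with the 10% maximum, 0.39 with at least 200 genes, -0.068 with the members among the variable genes and 0.082 at resolution 1.6. In fibroblast-like cells it was 0.22 with at least 200 genes and 0.26 at resolution 1.6, and in the VWF cells alone 0.41, against 1.15 for all endothelial-like cells. Leaving out 1 library gave 0.038 to 1.213 in macrophage-like cells (0.038 without asthma replicate 10) and -0.99 to -0.17 in plasma-like cells (-0.17 without control replicate 3). No paired analysis was possible because the groups share no replicate number. Depth limits the granulocyte-like values, where 18 of 36 members had too few UMIs for a test, and the endothelial-like values of the control group, which rest on 37 to 105 cells a library.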

Other observations

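IFI6 in plasmacytoid dendritic-like cells was at 1326.0 CPM in control replicate 1, 561.6 CPM in control replicate 2, 185.8 CPM in control replicate 3 and 119.7 CPM in asthma replicate 8, the 4 libraries with at least 10 such cells. IRF7 in the same cells was at 986.8, 1358.1, 869.2 and 1987.1 CPM, lowest in control replicate 3 and highest in asthma replicate 8. With 1 asthma library of at least 10 cells the class had no test over all libraries. With control replicate 2 or control replicate 3 left out, the log2 fold change of IFI6 was -2.54 and -2.90. Both fits held control replicate 1, the highest library, and 1 asthma library. They cannot measure the spread between asthma monkeys, so no conclusion is drawn from them. With control replicate 1 left out, or in 5 libraries with the cell minimum at 200 genes, IFI6 was not called. IFI6 was at 320.1 CPM in asthma replicate 10 (9 cells) and 122.6 CPM in asthma replicate 11 (2 cells).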
